A study of Mus musculus with 12 samples.

Results

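Mbp, Mog, Mag, Mobp, Cnp, Cldn11, Myrf, Opalin, Ermn and Fa2h are 10 genes of myelin and of mature oligodendrocytes, the cells that wrap axons of the brain in myelin. They were chosen by name, as a list of genes known for this cell type, and all 10 were found among the 23882 genes of the deposited tables. Each was represented by its RefSeq transcript with the most calls, and all 10 were among the 19826 genes with at least 500 calls in every library. Cortex of C57BL/6 mice was studied by whole-genome bisulfite sequencing, which reads methylated and unmethylated cytosines apart. The measure was mCH, the methylation of cytosines outside CG pairs. The level of a gene is the percentage of its non-CG cytosine calls that were methylated. At postnatal day 40 (P40) the labels gave 4 libraries with the genotype miR29 knockout (KO) and 4 wild-type (WT) libraries. At 4 months they gave 2 libraries with the genotype Dnmt3a mi5, whose titles read DNMT3AmiR29MUT, and 2 WT libraries. The labels used here do not say which miR-29 genes or which cells the knockout covers, nor what the mi5 allele changes.

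In the brain, mCH is deposited mainly by the DNA methyltransferase DNMT3A, is highest in neurons and builds up after birth. MicroRNAs of the miR-29 family pair with target messenger RNAs through their seed, and the Dnmt3a message is a known target. Myelin genes are transcribed strongly in oligodendrocytes and are little used in neurons. Whole cortex holds both, so a higher level per cell and a larger share of cells with a high level cannot be told apart in these libraries.

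The mature miR-29 strands are shown because the knockout is named after them. The sequences are from RefSeq (GRCm38.p6), with the seed in capitals.
miR-29a-3p, chr6:31062673-31062694, minus strand: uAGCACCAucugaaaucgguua
miR-29b-3p, chr1:195037091-195037113, plus strand, and chr6:31063025-31063047, minus strand: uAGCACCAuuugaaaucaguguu
miR-29c-3p, chr1:195037600-195037621, plus strand: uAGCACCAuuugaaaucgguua
All 3 share the seed AGCACCA and differ only outside it.

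The 250 bases upstream of the gene start are shown for Ermn and Cnp, the members with the highest and the lowest mean mCH level, from RefSeq (GRCm38.p6) with each CG in capitals. A c in lower case before any other base is a non-CG cytosine, the kind that was counted inside the genes. The windows lie upstream of annotated gene starts, and no level was measured in them.
Ermn, chr2:58052865-58053114, minus strand: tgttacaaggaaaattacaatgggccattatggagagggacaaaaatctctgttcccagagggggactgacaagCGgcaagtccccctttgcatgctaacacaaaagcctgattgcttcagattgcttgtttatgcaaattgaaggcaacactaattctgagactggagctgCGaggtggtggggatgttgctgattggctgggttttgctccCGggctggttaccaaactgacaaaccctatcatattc
Cnp, chr11:100574689-100574938, plus strand: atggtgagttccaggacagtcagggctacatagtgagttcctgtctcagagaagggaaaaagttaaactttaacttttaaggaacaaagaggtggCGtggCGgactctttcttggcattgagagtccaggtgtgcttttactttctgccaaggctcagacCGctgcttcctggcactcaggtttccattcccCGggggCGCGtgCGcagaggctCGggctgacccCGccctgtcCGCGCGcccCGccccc
The Ermn window holds 3 CG and the Cnp window 13, against a median of 6 over 27025 genes with such a window. The window of Cldn11, next to Ermn in level, holds 19, and that of Mog, among the lower members, holds 2. A relation between these counts and the mCH level was not tested. Windows were found for 7 of the 10 members. The letters CTGGCAC, a form of the motif that the transcription factor MYRF binds, were searched on both strands. They occurred upstream of Mag and Cnp, and in 4.14% of all windows. Mag has more than 1 window, and the letters lay in its windows 1 and 2, which overlap, but not in window 3. The form CTGGTAC, which shares all but 1 letter with CTGGCAC, occurred upstream of Mog and in 1.80% of all windows.

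The libraries held 399563492 to 732985426 non-CG calls over genes. As a check of the labels, the 4 miR-29 genes had 6 to 69 calls in KO and 121 to 244 calls in P40 WT cortex when summed. Single genes did not all separate the labels. Mir29b-1 had 0 to 22 calls in KO and 8 to 32 in WT, and Mir29b-2 had 0 to 32 in KO and 30 to 115 in WT. At P40 the mean gene level was 1.72% to 2.46% in KO cortex and 1.28% to 1.54% in WT cortex. At 4 months it was 2.31% to 2.35% in Dnmt3a mi5 and 1.31% to 1.32% in WT cortex. Over Dnmt3a itself the level was 0.995% ± 0.105 in KO and 0.736% ± 0.0421 in WT cortex at P40 (SD, n = 4 each).

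The members had between 1362 calls (Cnp, in a Dnmt3a mi5 library) and 82568 calls (Mbp, in a KO library). Cnp was the most shallowly covered, with 1362 to 5512 calls per library, and Mbp the most deeply, with 32206 to 82568. Intervals from calls cover counting error only.

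The pair of members in the top 2 places and the lowest member were the same in every library, and the middle of the order was not. Ermn, which encodes an actin-binding protein of late oligodendrocytes, and Cldn11, which encodes the tight junction protein of myelin, held the top 2 places in all 12 libraries, with Ermn first in 11. Cnp, which encodes a cyclic nucleotide phosphodiesterase of non-compact myelin, was lowest in all 12. In P40 WT cortex Ermn stood at percentile 99.0 of all tested genes by level, Cldn11 at percentile 93.5 and Cnp at percentile 17.7. The other members lay between, with Mbp at percentile 77.0, Opalin at percentile 75.6, Fa2h at percentile 73.5 and Mobp at percentile 69.2. Mag stood at percentile 64.1, Myrf at percentile 55.8 and Mog at percentile 52.5. Fa2h took places 3 to 8 of 10 over the libraries, Mag places 5 to 9, and Mbp and Opalin places 3 to 6. Cnp was below the median gene of its library in all 12 libraries. Mog was above it in 8 and Mag in 11, and the other 7 members were above it in 12. Both in KO and in WT cortex at P40, each member's range of levels overlapped that of the next in order, except that Cnp lay apart from the member above it.

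**Figure D1:**
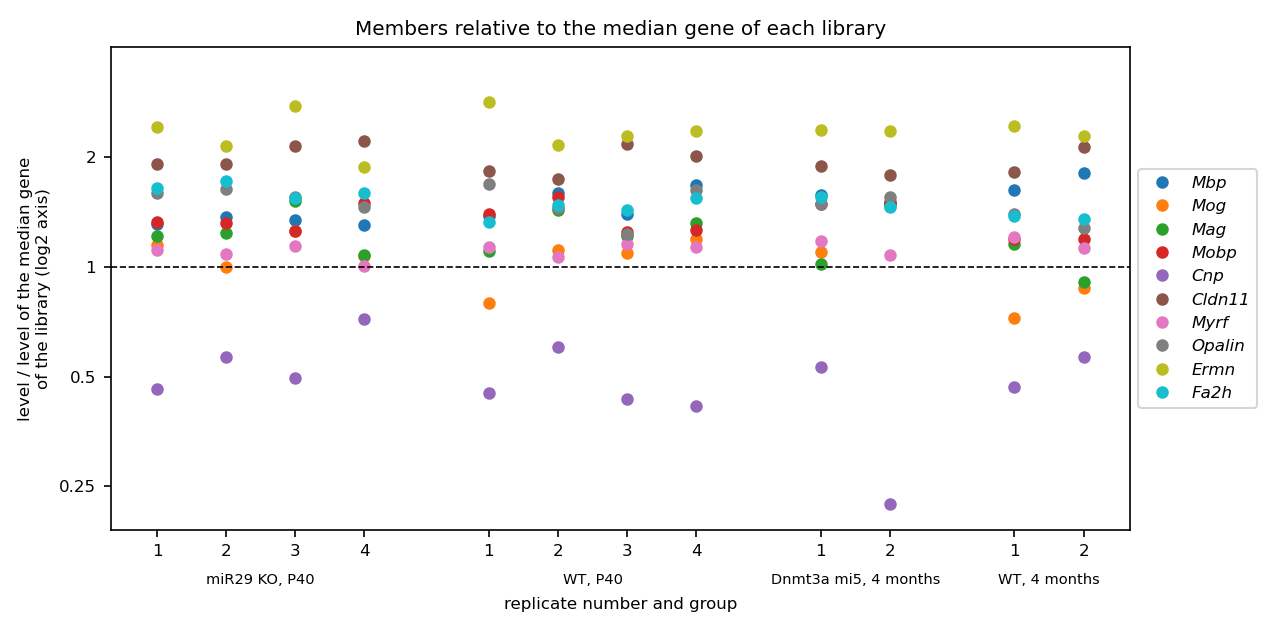
Level of each of the 10 genes divided by the level of the median gene of the same library (log2 axis), by replicate number and group; the dashed line marks the median gene. Ermn and Cldn11 stay on top and Cnp stays lowest in all 12 libraries.

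The first comparison asked whether mCH over myelin genes differed between miR29 KO and WT cortex at P40. All 10 members rose in the KO, where 76.5% of all tested genes rose and 0.0454% fell (quasi-binomial model over all genes, adjusted p under 0.05). The share varied with the level of a gene. In deciles of genes by 4-month WT level, 37.4% rose in that of Cnp and 83.1% to 96.6% in those of the other members. The size of a change is given as a log2 odds ratio, the log2 of the odds of a methylated call in the KO over those in WT. The members' values lay between 0.51 (Mbp) and 0.87 (Fa2h), with a median of 0.73, beside a median of 0.65 over all genes. The lowest KO library lay above the highest WT library for 7 of the 10, which was so for 57.1% of all genes. At P40 0.0504% of all genes had all KO libraries below all WT libraries, and no member did.

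**Figure D2:**
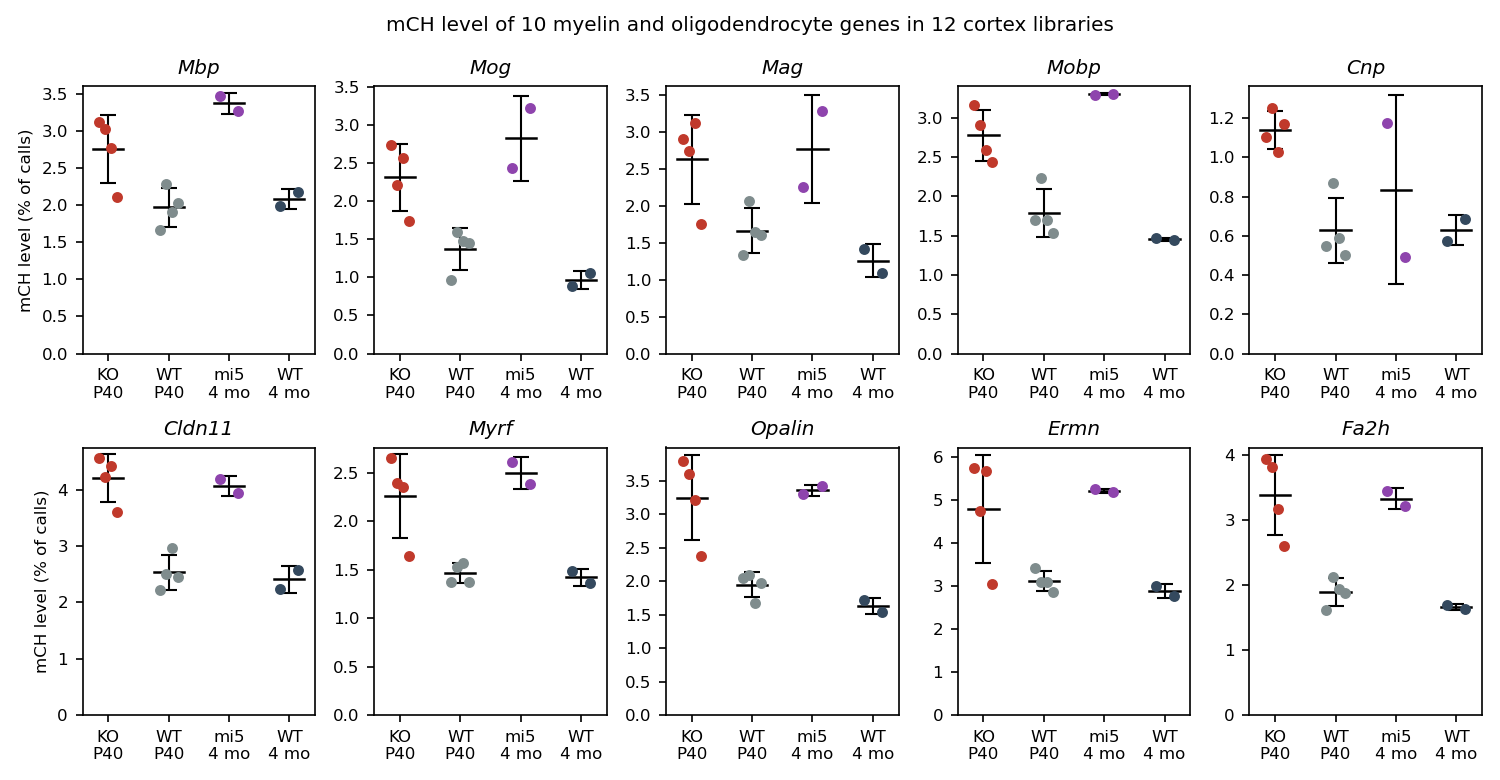
mCH level (percent of non-CG calls) of the 10 genes in each library, by group; points are single libraries, and bars are the mean and SD of a group. The KO points lie above all WT points for 7 genes at P40 and overlap them for Mbp, Mag and Ermn; at 4 months the groups overlap for Cnp.

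Among the basic proteins and the junction protein of compact myelin, Mbp encodes the protein that holds the inner membrane faces together. Mbp had levels of 3.13%, 3.03%, 2.78% and 2.12% in the KO libraries, against 1.67%, 2.29%, 1.90% and 2.03% in WT. The groups overlapped, since KO replicate 4 lay below WT replicate 2. Mbp rose (log2 odds ratio 0.51, SE 0.13, adjusted p = 0.00134). Mobp had levels of 3.16%, 2.91%, 2.59% and 2.44% in the KO libraries, against 1.69%, 2.23%, 1.70% and 1.53% in WT. Mobp encodes another basic protein of compact myelin, its groups did not overlap, and it rose (log2 odds ratio 0.65, SE 0.13, adjusted p = 1.9e-04). Cldn11 had levels of 4.56%, 4.23%, 4.42% and 3.60% in the KO libraries, against 2.21%, 2.51%, 2.96% and 2.45% in WT. All 4 KO libraries of Cldn11 lay above WT, and it rose (log2 odds ratio 0.77, SE 0.11, adjusted p = 5.7e-05).

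Mog and Mag encode glycoproteins of the outermost and the innermost myelin layer, and Opalin a sialylated membrane protein of oligodendrocytes. Mog had levels of 2.74%, 2.21%, 2.58% and 1.74% in the KO libraries, against 0.966%, 1.60%, 1.49% and 1.45% in WT. The groups did not overlap, and Mog rose (log2 odds ratio 0.80, SE 0.18, adjusted p = 5.1e-04). Mag had levels of 2.91%, 2.74%, 3.12% and 1.76% in the KO libraries, against 1.34%, 2.07%, 1.65% and 1.61% in WT. KO replicate 4 lay below WT replicate 2, and Mag rose (log2 odds ratio 0.68, SE 0.17, adjusted p = 0.00151). Opalin had levels of 3.80%, 3.60%, 3.20% and 2.37% in the KO libraries, against 2.04%, 2.09%, 1.67% and 1.97% in WT. The groups did not overlap, and Opalin rose (log2 odds ratio 0.77, SE 0.14, adjusted p = 1.3e-04).

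Fa2h encodes the hydroxylase that makes the hydroxylated fatty acids of myelin lipids. Fa2h had levels of 3.93%, 3.81%, 3.17% and 2.60% in the KO libraries, against 1.61%, 2.13%, 1.94% and 1.88% in WT. The KO libraries were all higher, and Fa2h rose (log2 odds ratio 0.87, SE 0.13, adjusted p = 5.7e-05). Cnp had levels of 1.11%, 1.25%, 1.03% and 1.17% in the KO libraries, against 0.547%, 0.869%, 0.590% and 0.503% in WT. The groups did not overlap, and Cnp rose (log2 odds ratio 0.86, SE 0.25, adjusted p = 0.00480). For Ermn the WT libraries lay close together and the KO libraries far apart. Ermn had levels of 5.75%, 4.75%, 5.68% and 3.05% in the KO libraries, against 3.43%, 3.11%, 3.10% and 2.87% in WT. KO replicate 4 lay below all WT libraries but replicate 4, and Ermn rose (log2 odds ratio 0.65, SE 0.16, adjusted p = 0.00123). Myrf encodes the transcription factor that switches on myelin genes. Myrf had levels of 2.65%, 2.40%, 2.35% and 1.64% in the KO libraries, against 1.38%, 1.53%, 1.57% and 1.37% in WT. Its groups did not overlap, and it rose (log2 odds ratio 0.65, SE 0.14, adjusted p = 4.7e-04).

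KO replicate 4 was the lowest KO library for 9 of the 10 members, and it also had the lowest mean gene level of the KO libraries, 1.72%. Without it the members' log2 odds ratios were 0.61 to 0.98, with a median of 0.83. KO replicate 1 was the highest KO library for 8 members. All 10 members stayed past the threshold whichever single library was left out. In those runs 69.9% to 80.7% of all genes rose. In two-sided exact permutation tests of the levels, p was 0.0571 for Mbp, 0.0571 for Mag and 0.114 for Ermn, and 0.0286, the smallest that 4 against 4 allows, for the other 7.

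Each library was also centred on its median gene, so that members were set against the shift common to genes. At P40 6 centred log2 odds ratios were above 0 and 4 below, with a median of 0.04. None of the 10 passed the threshold in the quasi-binomial model, where 1.04% of all genes rose and 3.55% fell. At an unadjusted p under 0.05 there were 2, Mbp at -0.18 (adjusted p = 0.0564) and Fa2h at 0.19 (adjusted p = 0.0568). limma on log2 levels called 0. limma on percent levels, with each library's median percent level subtracted, called 3, Cldn11, Opalin and Fa2h. All were higher in the KO relative to the median gene. Subtracting percent points does not remove a shift that grows with level, so this fit cannot set members apart from the common shift. That percent fit called 24.2% of all genes higher and 32.9% lower. On the uncentred scale, the intervals of all 10 members held the median of all genes. Those intervals include the spread between libraries that genes share, so they cannot tell whether a member departs from the median. For Mbp the SE was 0.13 uncentred and 0.05 centred. The share of all genes whose interval held the median is not given here.

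**Figure D3:**
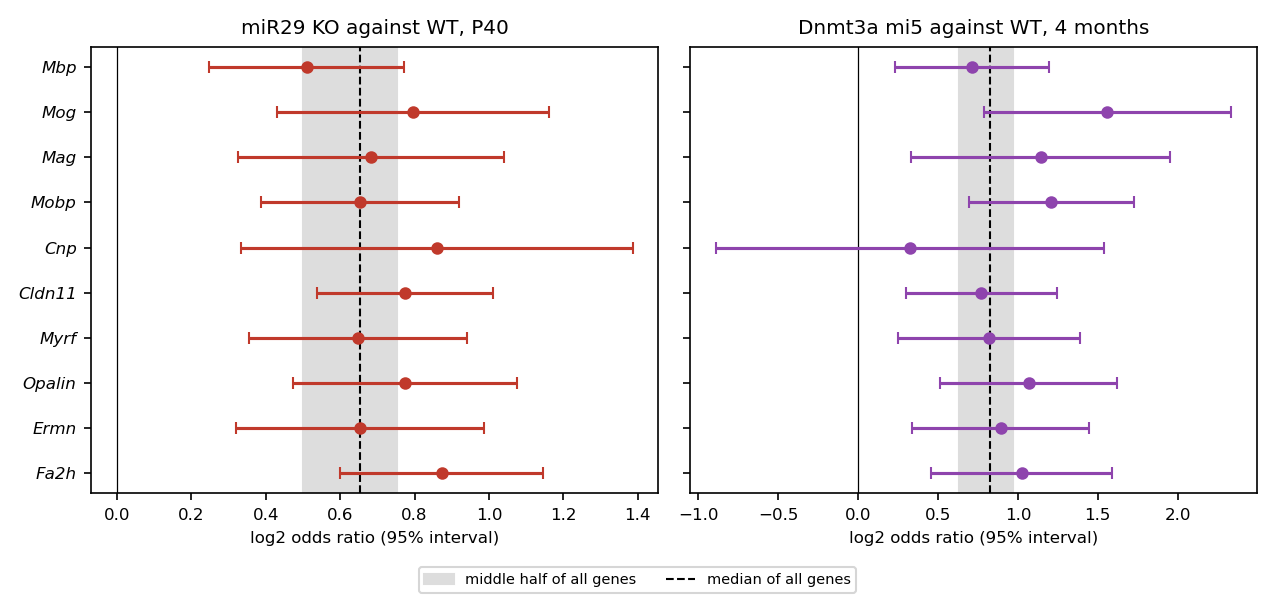
Log2 odds ratio of mCH for the 10 genes, miR29 KO against WT at P40 (left) and Dnmt3a mi5 against WT at 4 months (right); bars are 95% intervals, the dashed line is the median of all 19826 genes and the band runs between their quartiles. All 10 intervals hold the median of all genes in both panels, and the interval of Cnp at 4 months crosses 0. The intervals are uncentred and include the spread between libraries that genes share.

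The second comparison asked the same of Dnmt3a mi5 and WT cortex at 4 months. Of the 10 members 9 rose, where 58.8% of all tested genes rose and 0% fell. In deciles of genes by P40 WT level, 12.5% rose in that of Cnp and 74.2% to 89.2% in those of the other members. The median log2 odds ratio was 0.96, beside 0.83 over all genes. Both Dnmt3a mi5 libraries lay above both WT libraries for 9 members, which was so for 86.2% of all genes, while both lay below for 1.03%. With 2 libraries a group, an exact permutation test cannot go below 0.333. The SE and adjusted p given below rest on 1 spread per gene shared by all 12 libraries, those of P40 included. They do not measure the spread of the 4-month replicates alone. With the model fitted to the 4-month libraries only, 9 members rose as well, and 73.4% of all genes.

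Mog had the largest log2 odds ratio of the members. Mog had 2.44% and 3.23% in the Dnmt3a mi5 libraries, against 0.888% and 1.06% in WT. It rose (log2 odds ratio 1.56, SE 0.37, adjusted p = 0.00338), and its log2 odds ratio stood at percentile 98.7 of all genes. Mobp had 3.29% and 3.31% in the Dnmt3a mi5 libraries, against 1.47% and 1.44% in WT. The Mobp replicates lay close together, and it rose (log2 odds ratio 1.21, SE 0.25, adjusted p = 0.00300). Mag had 2.26% and 3.29% in the Dnmt3a mi5 libraries, against 1.42% and 1.10% in WT. Mag rose (log2 odds ratio 1.14, SE 0.39, adjusted p = 0.0183), with its Dnmt3a mi5 libraries farther apart than its WT libraries.

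Opalin had 3.30% and 3.41% in the Dnmt3a mi5 libraries, against 1.71% and 1.54% in WT. Both Dnmt3a mi5 libraries were higher, and Opalin rose (log2 odds ratio 1.07, SE 0.26, adjusted p = 0.00388). Fa2h had 3.44% and 3.21% in the Dnmt3a mi5 libraries, against 1.70% and 1.63% in WT. The Fa2h groups lay well apart, and it rose (log2 odds ratio 1.02, SE 0.27, adjusted p = 0.00515). Ermn had 5.26% and 5.19% in the Dnmt3a mi5 libraries, against 2.99% and 2.77% in WT. Ermn, again the highest member, rose (log2 odds ratio 0.89, SE 0.27, adjusted p = 0.00953). The remaining called members had smaller log2 odds ratios. Myrf had 2.61% and 2.38% in the Dnmt3a mi5 libraries, against 1.48% and 1.36% in WT. Myrf rose (log2 odds ratio 0.82, SE 0.27, adjusted p = 0.0168). Cldn11 had 4.19% and 3.94% in the Dnmt3a mi5 libraries, against 2.24% and 2.57% in WT. Cldn11 rose (log2 odds ratio 0.77, SE 0.23, adjusted p = 0.00869). Mbp had 3.48% and 3.28% in the Dnmt3a mi5 libraries, against 1.99% and 2.18% in WT. Mbp rose (log2 odds ratio 0.71, SE 0.23, adjusted p = 0.0145).

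Cnp did not pass the threshold at 4 months (log2 odds ratio 0.32, SE 0.58, adjusted p = 0.632, interval -0.89 to 1.54). Cnp had 1.17% and 0.494% in the Dnmt3a mi5 libraries, against 0.574% and 0.685% in WT. Dnmt3a mi5 replicate 1 lay above both WT libraries and replicate 2 below both. Replicate 1 had 16 methylated calls of 1362 (95% Wilson interval of 0.724% to 1.90%) and replicate 2 had 9 of 1821 (0.260% to 0.937%), so the intervals overlapped. The log2 odds ratio of Cnp ran between -0.35 and 0.91 as single libraries were left out.

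Mog, Mobp, Opalin and Fa2h passed the threshold at 4 months whichever single library was left out. Mbp, Mag, Cldn11, Myrf and Ermn each lost it at least once. The share of all genes that passed in every one of these runs is not given here. The count was 6 without Dnmt3a mi5 replicate 1, where 38.9% of all genes rose and 0% fell. It was 8 without Dnmt3a mi5 replicate 2, where 43% of all genes rose and 0% fell. It was 4 without WT replicate 1 (23.6% of all genes rose) and 5 without WT replicate 2 (31.8%), with 0.00504% falling in each. A group left with 1 library was assumed to vary like the others. It was 0 without the libraries with low coverage of Y-linked genes, which left Dnmt3a mi5 replicate 2 against WT replicate 1, with the spread taken from the P40 groups. There 0.00504% of all genes rose and 0% fell. The log2 odds ratios of the 9 members were 0.70 (Myrf) to 1.90 (Mog), with adjusted p of 0.109 to 0.270. After centring on the median gene, 0 of the 10 passed in the quasi-binomial model, where 0% of all genes rose and 0.0353% fell. At an unadjusted p under 0.05 there were 2, Mog at 0.69 (adjusted p = 0.426) and Mobp at 0.34 (adjusted p = 0.510). limma on log2 levels called 0. limma on percent levels, with each library's median percent level subtracted, called 6. Relative to the median gene, Cnp was lower and 5 were higher in Dnmt3a mi5. As measured, the mean of Cnp was 0.834% in Dnmt3a mi5 and 0.629% in WT. Subtracting percent points does not remove a shift that grows with level, so this fit cannot set members apart from the common shift. That percent fit called 21% of all genes higher and 27.7% lower.

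Whether the Dnmt3a mi5 and miR29 KO differences were unlike each other was tested as the difference between them, in which mutation, age and cohort cannot be told apart. None of the 10 members passed in the quasi-binomial model, where 0% of all genes passed in either direction, and 0 had an unadjusted p under 0.05. limma called 0 as well, with Mog and Mobp under an unadjusted p of 0.05. The estimate for Mog was 0.76 (95% interval -0.09 to 1.62) and for Mobp 0.56 (-0.03 to 1.14). For Cnp it was -0.54 (-1.86 to 0.79).

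Between WT cortex at 4 months and WT cortex at P40, where age and cohort cannot be told apart, 0 of the 10 members passed the threshold, and 0 had an unadjusted p under 0.05 in the quasi-binomial model or with limma. Of all genes 0.131% were higher and 0% lower at 4 months. The members' log2 odds ratios were below 0 for 9 of 10, with a median of -0.15 beside -0.08 over all genes. Mobp was the 1 member whose WT groups did not overlap, with 1.45% ± 0.0195 at 4 months (n = 2) and 1.79% ± 0.304 at P40 (SD, n = 4). Its log2 odds ratio was -0.31 (95% interval -0.78 to 0.17). Both 4-month libraries lay below all P40 libraries for 12.1% of all genes and above them for 6.03%.

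Other genes of myelin and of mature oligodendrocytes made a list of 32, of which 31 were tested. At P40 29 of the 31 rose, beside 76.5% of all genes, with a median log2 odds ratio of 0.74, and Gjb1 and Nkx6-2 did not pass. At 4 months 22 of the 31 rose, beside 58.8% of all genes, with a median of 0.87. The largest log2 odds ratio at P40 was that of Aspa, which encodes an enzyme that splits N-acetylaspartate. Aspa had 2.35% ± 0.356 in KO and 1.26% ± 0.179 in WT cortex (SD, n = 4 each; log2 odds ratio 0.93, SE 0.15, adjusted p = 6.3e-05). The smallest was that of Nkx6-2, a homeobox factor of oligodendrocytes, with 4.77% ± 1.31 in KO and 4.00% ± 0.281 in WT (log2 odds ratio 0.29, SE 0.19, adjusted p = 0.163). At 4 months Adamts4, which encodes a matrix protease, had the largest, with 2.64% ± 0.453 in Dnmt3a mi5 and 0.863% ± 0.340 in WT (SD, n = 2 each; log2 odds ratio 1.63, SE 0.38, adjusted p = 0.00318). Tmem88b had the smallest, with 1.06% ± 0.288 in Dnmt3a mi5 and 1.04% ± 0.309 in WT (log2 odds ratio 0.08, SE 0.53, adjusted p = 0.906).

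Of 16 genes of oligodendrocyte precursors and of the lineage, 14 were tested, Olig1 and Olig2 having too few calls. At P40 12 of the 14 rose, beside 76.5% of all genes, with a median log2 odds ratio of 0.65. At 4 months 12 of 14 rose, beside 58.8% of all genes, with a median of 0.84. Sox10, a transcription factor of the whole lineage, had the largest at P40, with 1.95% ± 0.131 in KO and 1.04% ± 0.228 in WT (SD, n = 4 each; log2 odds ratio 0.90, SE 0.18, adjusted p = 1.9e-04). At 4 months Sox10 did not pass (log2 odds ratio 0.74, SE 0.36, adjusted p = 0.0843). C1ql1, which encodes a secreted C1q-like protein, had the smallest at P40 (log2 odds ratio 0.39, SE 0.14, adjusted p = 0.0172). At 4 months the largest was that of Sox8, a related factor, with 2.83% ± 0.507 in Dnmt3a mi5 and 0.934% ± 0.218 in WT (SD, n = 2 each; log2 odds ratio 1.61, SE 0.53, adjusted p = 0.0150). Sox8 did not pass at P40 (log2 odds ratio 0.59, SE 0.31, adjusted p = 0.0895). For Nkx2-2, a homeobox factor of the lineage, the level was 1.46% ± 0.288 in Dnmt3a mi5 and 1.69% ± 1.14 in WT (log2 odds ratio -0.20, SE 0.47, adjusted p = 0.714).

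Markers of other cortical cells were counted in the same way, beside 76.5% of all genes that rose at P40 and 58.8% at 4 months. At P40 13 of 14 astrocyte, 9 of 10 microglia and 11 of 11 vascular genes rose, with median log2 odds ratios of 0.70, 0.73 and 0.77. Of 15 neuronal genes 5 rose, with a median of 0.33. At 4 months 11 of 14 astrocyte, 7 of 10 microglia and 11 of 11 vascular genes rose, with medians of 0.76, 0.91 and 0.89. Of the neuronal genes 5 of 15 rose there too, with a median of 0.73. In P40 WT cortex the median level was 1.84% over the members, 0.823% over the neuronal genes and 1.31% over all tested genes. As measured, no gene of these lists fell in either comparison. After centring at P40, Snap25, Syt1, Camk2a, Nefm and Syn1, 5 of the 15 neuronal genes, fell and Stmn2 rose, and the list's median was -0.35. Slc1a2 of the astrocyte list and Sox6 of the precursor list fell as well. After centring at 4 months Sox6 fell, and no other gene of the lists passed. Of all genes 1.04% rose and 3.55% fell after centring at P40, and 0% rose and 0.0353% fell at 4 months. The share of genes that rose varied with WT level. At P40 it was 37.4% in the decile of Cnp and 83.1% to 96.6% in those of the other members. At 4 months it was 12.5% in the decile of Cnp and 74.2% to 89.2% in the others. The lists were not set against genes of like level, and the difference between the lists was not tested.

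**Figure D4:**
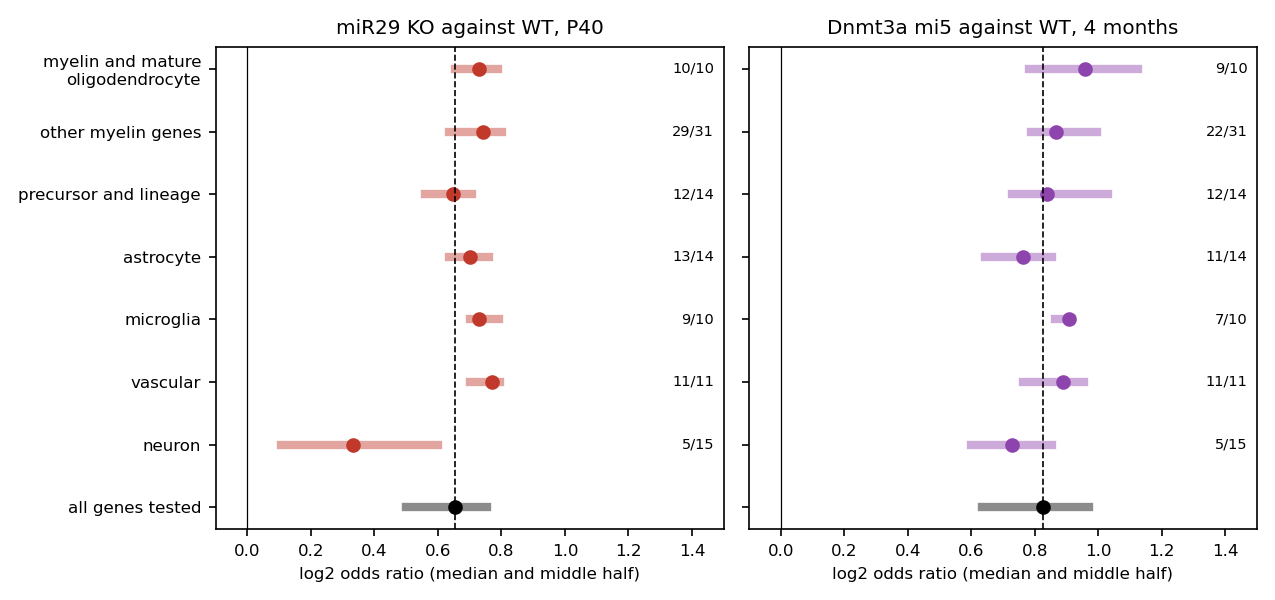
Log2 odds ratio of mCH by gene list, miR29 KO against WT at P40 (left) and Dnmt3a mi5 against WT at 4 months (right); points are list medians, bars run between the quartiles, the dashed line is the median of all genes, and the counts at the right give genes that rose over genes tested. The neuronal list has the lowest median of the lists in both panels, 0.33 at P40 and 0.73 at 4 months. The lists were not matched for WT level.

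The genes whose levels over the 12 libraries lay closest to the members' median level were Gm1715, Eif2ak4, Ctnna2, Mrrf and Tyw1, taken from 15991 candidates by the root mean square difference of log2 levels. The differences were 0.0575 for Gm1715, 0.0657 for Eif2ak4, 0.0698 for Ctnna2, 0.0708 for Mrrf and 0.0720 for Tyw1. The closest member was Mobp, at 0.0895, and 53 candidates lay closer than it. The farthest was Cnp, at 1.45. Gm1715 had mean levels of 2.83% in KO and 1.76% in WT cortex at P40, and of 3.37% in Dnmt3a mi5 and 1.64% in WT cortex at 4 months.

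Mbp, Mag, Mobp and Cnp have more than 1 transcript in the tables. Mbp has 8, of which 4 hold distinct calls. Over the transcript with the most calls, NM_010777, the level was 2.76% ± 0.456 in KO and 1.97% ± 0.261 in WT cortex at P40. Over NM_001025251, with fewer calls, it was 2.75% ± 0.365 in KO and 1.98% ± 0.371 in WT (SD, n = 4 each). At 4 months the choice mattered for Mbp. With its row of fewest calls the log2 odds ratio for Dnmt3a mi5 against WT was 0.91 in place of 0.71, above and not below the median of 0.83 over all genes. The Mbp difference between the mutants was then 0.41 in place of 0.20. The Mbp value for WT at 4 months against WT at P40 was -0.12 in place of 0.08, neither of them past the threshold. Over the Mobp transcript with fewer calls, NM_001039365, the level was 2.93% ± 0.323 in KO and 1.94% ± 0.319 in WT, and over the one used it was 2.78% ± 0.324 in KO and 1.79% ± 0.304 in WT. Mbp overlaps Rpl21-ps8 and Gm52337 and Cnp overlaps Dnajc7 in the RefSeq annotation (GRCm38.p6). Calls in shared stretches would count for both genes, which was not checked for the transcripts as counted.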

How the data were processed

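Cortical DNA of 12 libraries was bisulfite sequenced with an unmethylated lambda spike-in, per the labels' protocols; conversion rates were not used here. Reads were processed with BSMAP on mm9, per the submitters' processing notes; no version is given in the sources used here. The tables the authors deposited give, per RefSeq transcript, a count of methylated calls outside CG and, as an expected count, the total calls. Only 35.7% to 62.2% of these totals are whole (within 1e-06), for a reason the sources used here do not give, and they were rounded. Of 36672 transcripts, 300 had no symbol in the RefSeq table (GRCm38.p6, used for names and neighbours), and 1395 with 410 repeated identifiers were left out.

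Group means were estimated for each gene from all 12 libraries in a quasi-binomial logistic model, its dispersion moderated with limma 3.58.1 (squeezeVar, trend, robust) in R 4.3.3, with Benjamini-Hochberg adjustment over 19826 genes and a threshold of 0.05. A second fit centred each library on its median gene. The uncentred quasi-binomial model was run on simulated calls for both mutant comparisons. That simulation held no shift shared by the genes of a library. It gave all genes and libraries the same excess spread, unlike the real replicates. Its outcome is not given here, and no result rests on it. The centred fit and the limma fits to levels were not simulated. Tables and plots were made in Python 3.11.15 (matplotlib 3.10.9, scipy 1.17.1, pandas 2.3.3, numpy 2.4.6). All members are named, and of the other oligodendrocyte lists the genes with the highest and lowest log2 odds ratio. The members and lists were chosen with earlier results of these data known. Since the labels do not name separate animals, the p-values reflect only the spread between samples, which may be technical. Replicates differed by more than sampling noise, with a chi-square per gene of 2.73 to 55.1. Alternatives covered the scale and pseudocount, the minimum of calls, background, the transcript, moderation, the samples in the fit, the replicate block and leaving out libraries.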

Additional observations from a re-analysis of the deposited data

How the results depend on the processing

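Of all genes 67.2% (no minimum of calls) to 84.5% (minimum of 2000 calls) rose at P40 over the alternative runs. At 4 months 48.7% to 73.6% rose in the runs that kept all 4-month libraries. At P40 the count of members that rose was 10 under each alternative fit except with a minimum of 2000 calls. There Cnp was not tested and 9 of 9 rose. The P40 count was also 10 whichever single library was left out. At 4 months it was 9 under the alternative fits, 4 to 9 with single libraries left out, and 0 without the 4 libraries, 1 per group, with low coverage of Y-linked genes, which left 1 library against 1, with the spread taken from the P40 groups. There 1 gene of all those tested passed, and the log2 odds ratios of the 9 members were 0.70 to 1.90. Other myelin genes at 4 months gave 12 to 24 with single libraries left out and 0 without those 4 libraries. After centring, the P40 count of 0 became 1 with no minimum of calls (Fa2h, higher in KO), 1 with that minimum of 2000 calls (Mbp, lower), 1 with the 1st percentile gene level subtracted (Mbp, lower) and 3 with limma on percent levels, and was 0 to 1 with single libraries left out. The centred 4-month count of 0 became 6 with limma on percent levels. That percent fit called 24.2% of all genes higher and 32.9% lower at P40, and 21% higher and 27.7% lower at 4 months. Higher and lower here are relative to the median gene. For the other alternative centred runs, limma on log2 levels among them, the share of all genes is not given here. Their counts therefore have no background beside them. The cause of the changed counts was not tested. At P40 the deviations of same-numbered samples correlated at -0.05 to 0.11, and those of the other pairs at -0.14 to 0.21. At 4 months the value was -0.09 for same numbers and 0.09 otherwise. With 2 libraries a group these can differ only in sign. Whether the numbers pair the samples cannot be decided from these values. With the replicate block 10 members rose at P40 and 9 at 4 months, and 15224 (76.8%) and 12339 (62.2%) of all genes. No member past the threshold changed direction under any alternative run. Cnp had the fewest calls of the members, 1362 to 5512 per library.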
